A study of Rattus norvegicus with 250 samples.

Results

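Lipt2 (ENSRNOG00000016906), C2cd3 (ENSRNOG00000017608) and Plekhb1 (ENSRNOG00000018627) are neighboring genes of rat chromosome 1 that the study put forward among its candidates for behavioral temperament. Their rows, taken by identifier, are 3 of the 32883 genes counted in the hippocampus of F2 rats, and all 3 were among the 19448 genes with at least 1 read in 25% of the rats. The F2 rats are grandoffspring of crosses between bHR (bred High Responder) and bLR (bred Low Responder) rats, lines selected for how much or how little they explore an unfamiliar enclosure, and the labels name no drug or surgery. After 5 libraries labeled as failed in quality control were left out, 245 rats with 1 library each remained, 122 males aged 113 to 123 days and 123 females aged 124 to 132 days, from 12 families of 13 to 27 rats. Punches of the dorsal and ventral hippocampus were pooled for each rat and came from the left hippocampus of 123 rats and the right of 122. Of these rats, 208 had been trained in Pavlovian Conditioned Approach (PavCA) and 37 had not. Total counts ranged from 17.9 to 31.5 M (mega) counts per library with a median of 21.6 M, and no pair of libraries correlated below 0.911. Marker genes of neurons and glia were read at a median of 1564 counts per mega counts (CPM) for Slc17a7, a glutamate transporter of excitatory neurons, and 847 CPM for Gfap, an astrocyte filament protein. The genes were selected on genetic variation in their expression and on relations with behavior in a cohort that includes these same rats. Their slopes on behavior and their levels by family are therefore given as descriptions, without a test.

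Lipt2 encodes a mitochondrial octanoyltransferase that starts the making of lipoate, the cofactor on which pyruvate dehydrogenase, oxoglutarate dehydrogenase and the glycine cleavage system depend. C2cd3 encodes a centriole protein that is needed to build the distal appendages from which a primary cilium grows, and cells without it signal poorly through the hedgehog pathway. Plekhb1 encodes evectin 1, a membrane protein with a pleckstrin homology domain that is known from photoreceptors and myelinating cells. In the current RefSeq annotation (GRCr8) 4 protein-coding genes lie between Lipt2 and C2cd3 and 6 between C2cd3 and Plekhb1.

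All 3 promoters hold a GC box, the letters GGGCGG read on either strand, and the stretch around that box is shown for each gene. The windows are from RefSeq, on GRCr8, with the GC box in capitals. They lie at chr1:163916636-163916665 (plus strand) for Lipt2, chr1:164127711-164127740 (plus strand) for C2cd3 and chr1:164425183-164425212 (minus strand) for Plekhb1.
Lipt2: gggcctctgtccCCGCCCctagaccgaaca
C2cd3: ccaagtgcctggGGGCGGccgtgggcgcaa
Plekhb1: agttggtctggaGGGCGGggcccgggggca
The GC box began 47 bases before the annotated start in Lipt2, 30 bases into the transcript in C2cd3 and 28 bases before the start in Plekhb1. Of 33469 rat promoters of the same length (300 bases), 33.1% hold GGGCGG on either strand. CCAAT was found elsewhere in the 300-base promoters of Lipt2 and C2cd3, outside the stretches shown, and in 37.5% of all promoters. TATAAA was found in none of the 3 promoters and in 14.2% of all promoters. These matches are descriptions of letters in a window, not of factor binding.

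All 3 genes were read in every library. Lipt2 counts ranged from 52 to 301 with a median of 134, which corresponds to 2.41 to 18.4 CPM with a median of 5.63 CPM. C2cd3 counts ranged from 52 to 656 with a median of 294, or 3.72 to 30.5 CPM with a median of 13.2 CPM. Plekhb1 counts ranged from 2989 to 13380 with a median of 6373, or 164 to 620 CPM with a median of 292 CPM. The highest library exceeded the lowest 7.64-fold for Lipt2, 8.21-fold for C2cd3 and 3.78-fold for Plekhb1. On the log2 scale the SD between rats was 0.61, 0.66 and 0.35, against 0.13, 0.091 and 0.018 from the counting of reads alone. In these values as measured, the spread between rats was thus several times the counting error in each gene, and closest to it in Lipt2.

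Most of this spread in Lipt2 and C2cd3, and a smaller part of that in Plekhb1, moved with the composition of the RNA. The labels give the share of ribosomal, messenger and intronic bases in each library, and the remainder, called here the intergenic percentage, ran from 9.91 to 17.3% with a median of 13.3%. In the model with LocoScore and the technical covariates, Lipt2 fell by 0.20 on the log2 scale per percentage point (SE 0.014, limma adjusted p = 3.1e-34). C2cd3 rose by 0.26 (SE 0.019, limma adjusted p = 5.84e-32) and Plekhb1 fell by 0.10 (SE 0.016, limma adjusted p = 1.48e-09). All 3 genes thus passed the false discovery rate (FDR) of 0.10, as did 77.3% of all genes tested. The intergenic percentage alone accounted for 80.0% of the variance of Lipt2, 76.7% of that of C2cd3 and 43.5% of that of Plekhb1, against a median of 42.0% over all genes. The ribosomal percentage (0.48 to 2.88%) had a slope of 0.63 per percentage point for Lipt2 (SE 0.052, limma adjusted p = 7.14e-26) and fell by 0.41 for C2cd3 (SE 0.086, limma adjusted p = 7.32e-06). For Plekhb1 the slope was 0.11 (SE 0.066, limma adjusted p = 0.124), and 68.8% of all genes passed. Lipt2 and C2cd3 therefore stood at opposite ends of the same technical gradient, with Lipt2 high where C2cd3 was low. The libraries of sequencing batch 3 sat at the lower end of it, with a median intergenic percentage of 12.0% against 13.8% and 14.0% in batches 1 and 2. Lipt2 was at a median of 8.06 CPM there and at 5.01 and 4.95 CPM in the other two, while C2cd3 was at 10.2 CPM against 14.4 and 15.1 CPM.

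**Figure D1:**
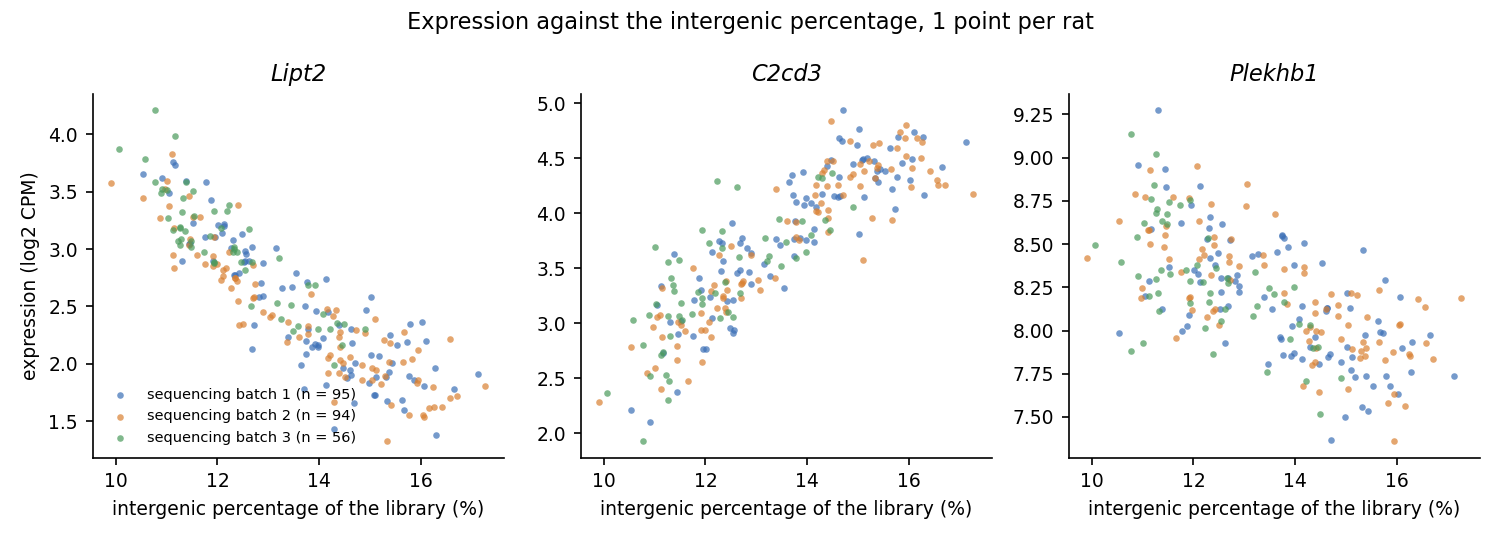
Expression of Lipt2, C2cd3 and Plekhb1 (y axis, log2 CPM) against the intergenic percentage of the library (x axis, %), with 1 point per rat colored by sequencing batch. Lipt2 falls along the axis, C2cd3 rises and Plekhb1 falls less steeply.

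The distributions also differed before and after the covariates were removed. Before the covariates were removed, a mixture of 2 normal components described log2 CPM of Lipt2 and C2cd3 better than 1 component by the Bayesian information criterion, as it did for 46.1% of all genes, and 1 component was enough for Plekhb1. Both genes were flatter than a normal curve, with an excess kurtosis of -0.81 for Lipt2 and -0.79 for C2cd3 (median of all genes -0.36). After sex, the percentages of ribosomal and intergenic bases, batch, dissector and PavCA experience were removed, the SD fell to 0.20 for Lipt2, 0.30 for C2cd3 and 0.25 for Plekhb1. The SD from the counting of reads alone is 0.13 for Lipt2, 0.091 for C2cd3 and 0.018 for Plekhb1. Counting error is thus a larger part of what remained in Lipt2 than in C2cd3 or Plekhb1. A single component was then best for each of the 3 genes, as for 81.9% of all genes. Excess kurtosis was 0.21 for Lipt2, 0.49 for C2cd3 and -0.42 for Plekhb1, beside a median of 0.17. Plekhb1 was the flattest of the 3, with 8.86% of genes below it, and skewness was between -0.17 and 0.25 in all 3. In males alone C2cd3 had an excess kurtosis of 1.24 and in females -0.42, with 1 component in both sexes.

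**Figure D2:**
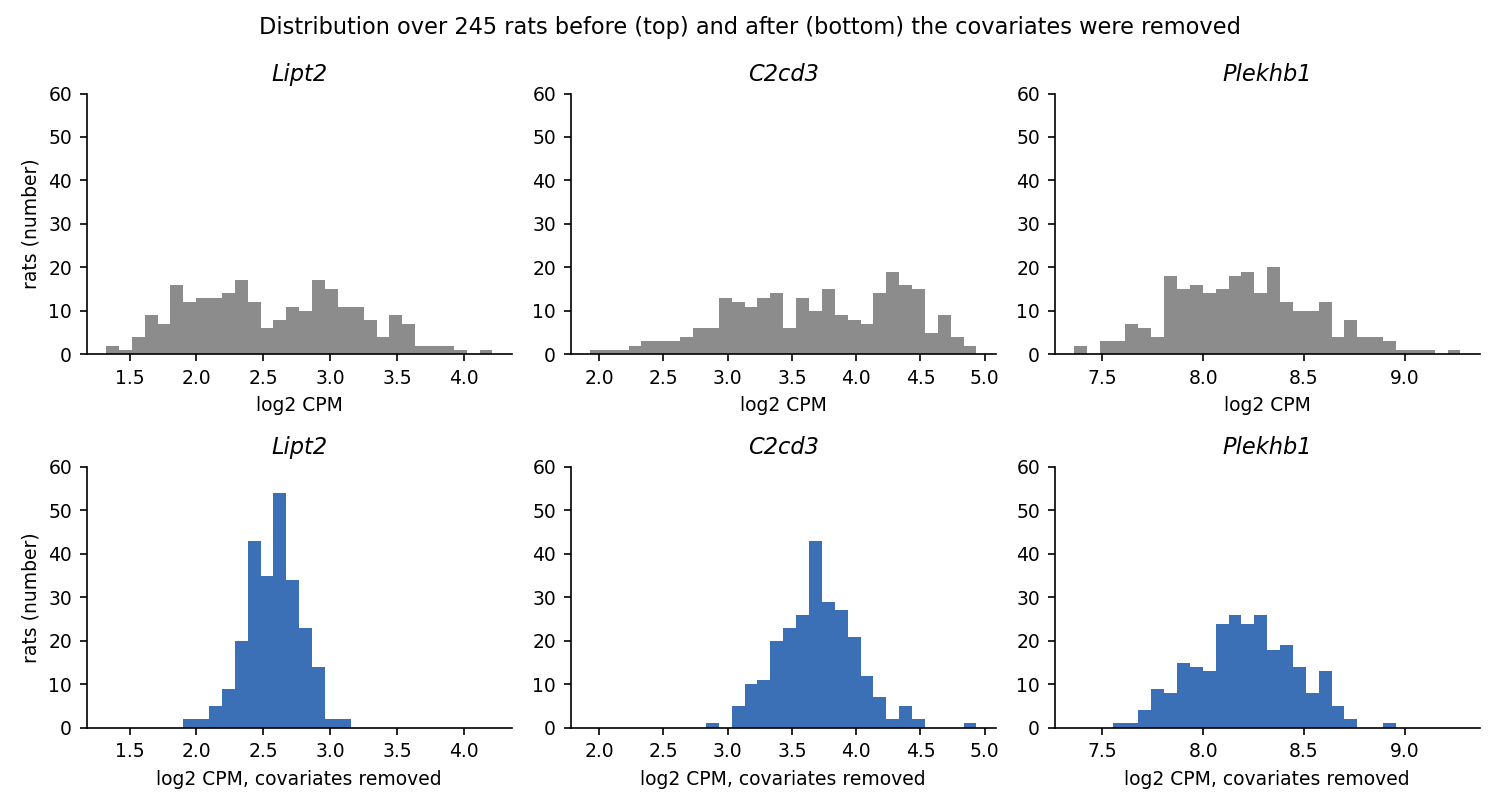
Number of rats (y axis) by log2 CPM before (top row, gray) and after (bottom row, blue) the covariates were removed, for 245 rats on the same x scale for each gene. The broad upper histograms of Lipt2 and C2cd3, with an SD of 0.61 and 0.66, narrow to 0.20 and 0.30 below.

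Whether the 3 genes varied together depended on these covariates. In log2 CPM as measured, Lipt2 and C2cd3 ran opposite (Pearson's r = -0.83, Spearman's rho = -0.83), as did C2cd3 and Plekhb1 (r = -0.71, rho = -0.72), while Lipt2 and Plekhb1 rose together (r = 0.54, rho = 0.55). Each had a two-sided permutation p of 1e-05 (100000 resamples within family, adjusted p = 1e-05 over 3 pairs, n = 245), which is the smallest p these resamples can give. On this scale an absolute rho over 0.5 was common, at 60.4% of all genes with Lipt2, 59.8% with C2cd3 and 47.1% with Plekhb1. Within the 3 sequencing batches rho was -0.82, -0.89 and -0.58 for Lipt2 with C2cd3, 0.48, 0.66 and 0.47 for Lipt2 with Plekhb1, and -0.69, -0.77 and -0.70 for C2cd3 with Plekhb1. Without the 2 rats farthest from the median, r was -0.82, 0.52 and -0.70 for the 3 pairs in the same order.

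With the covariates removed, the relation of Lipt2 to C2cd3 was no longer detected (r = -0.091, rho = -0.075, permutation p = 0.271 and 0.348, adjusted p the same). The relation of Lipt2 to Plekhb1 turned negative (r = -0.28, rho = -0.29, permutation p = 1e-05, adjusted p = 1.5e-05 over 3 pairs). C2cd3 and Plekhb1 stayed opposite at a lower level (r = -0.34, rho = -0.34, permutation p = 1e-05, adjusted p = 1.5e-05). Without the 2 rats farthest from the median, r was -0.096, -0.29 and -0.32. In males rho was -0.11, -0.27 and -0.32 for the 3 pairs, and in females -0.041, -0.30 and -0.36. Within sequencing batches 1, 2 and 3, rho of Lipt2 with Plekhb1 was -0.34, -0.14 and -0.43, and in batch 2 it did not pass (permutation adjusted p = 0.202). For C2cd3 with Plekhb1 it was -0.35, -0.30 and -0.37, each past 0.05 after adjustment, and for Lipt2 with C2cd3 it was -0.11, -0.095 and 0.039, none of them past it. With family means removed as well, rho was -0.025, -0.32 and -0.33. Rats with more Plekhb1 thus had less Lipt2 and less C2cd3 beyond the covariates, within families and over all rats. The 3 genes are neighbors that were chosen on genetic variation and behavior in a cohort that includes these rats. The permutation p-values of the pairs, here and below, are therefore not independent of that choice. The part that shared inheritance of neighboring genes has in these relations was not tested.

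C2cd3 after the covariates still followed a broad axis that many genes share. The first principal component of the covariate-adjusted expression of all genes held 15.8% of the variance and had r = 0.78 with C2cd3, -0.40 with Lipt2 and -0.11 with Plekhb1 over the 245 rats. Removing the first 5 components, an alternative chosen after seeing the data, gave rho = 0.28 for Lipt2 with C2cd3 (r = 0.30, permutation p = 5e-05 and 1e-05, adjusted p = 5e-05 and 1e-05). Lipt2 with Plekhb1 was then at -0.33 and C2cd3 with Plekhb1 at -0.45 (permutation adjusted p = 1.5e-05 for both). The sign of the relation between Lipt2 and C2cd3 therefore turned on whether shared axes of variation were kept, while both relations to Plekhb1 kept their sign after the covariates were removed.

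The neighbors of the 3 genes on chromosome 1 were examined next, as 22 genes from Slco2b1 to Fchsd2, of which 19 are neither Lipt2, C2cd3 nor Plekhb1, and all 22 were tested. Their order along the chromosome is the published one. Correlations across rats are given as descriptions, since the points share libraries, covariates and relatives. With the covariates removed, Plekhb1 ran opposite to Pgm2l1, a glucose 1,6-bisphosphate synthase (rho = -0.62), to AABR07004881.1 (rho = -0.53) and to Ucp2, a mitochondrial carrier (rho = -0.40). C2cd3 rose with the same 3 genes, at rho = 0.65, 0.45 and 0.42, and most closely with Fam168a (rho = 0.82) and Arhgef17 (rho = 0.77). Lipt2 had its highest values with Mrpl48, a mitochondrial ribosomal protein (rho = 0.33), and Spcs2, a signal peptidase subunit (rho = 0.32).

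Among the 19 neighbors, an absolute rho over 0.3 was found for 2 with Lipt2, 6 with C2cd3 and 3 with Plekhb1. Over all genes the share was 8.50%, 31.9% and 4.65%, so the count for C2cd3 was close to that of any gene. After the 5 components were removed, the counts were 1, 5 and 7 neighbors, while the share over all genes fell to 0.0463%, 0.0874% and 1.23%. The sign with Plekhb1 was opposite to a shared sign with Lipt2 and C2cd3 for 13 of the 19 neighbors, against 7 of 19 before the components were removed. Spcs2, at 0.090, 0.21 and 0.040, was among those without this pattern of signs. The share of all genes with the pattern was not counted. The 3 genes also correlate with each other, so their signs with another gene are not independent. Nothing particular to the neighbors is therefore read from this count. The neighbors past 0.3 with at least 1 of the 3 genes were these. Ucp2 was at 0.43 with Lipt2, 0.51 with C2cd3 and -0.57 with Plekhb1. Pgm2l1 stood at 0.26, 0.54 and -0.61, and AABR07004881.1 at 0.18, 0.47 and -0.47. Dnajb13, of the DnaJ cochaperone family, was at 0.18, 0.28 and -0.34. Coa4, an assembly factor of cytochrome c oxidase, was at -0.21, -0.32 and 0.35, Mrpl48 at -0.13, -0.23 and 0.40, and P4ha3, a prolyl hydroxylase subunit, at -0.17, -0.23 and 0.34. Fam168a was at 0.21, 0.38 and -0.14, and Arhgef17, no longer past 0.3, was at 0.086 with C2cd3. Ucp2 and Pgm2l1 were thus above 0 with Lipt2 and C2cd3 and below 0 with Plekhb1, and Coa4, Mrpl48 and P4ha3 the reverse. P4ha3 was read at a median of only 0.743 CPM, so its values rest on few reads.

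**Figure D3:**
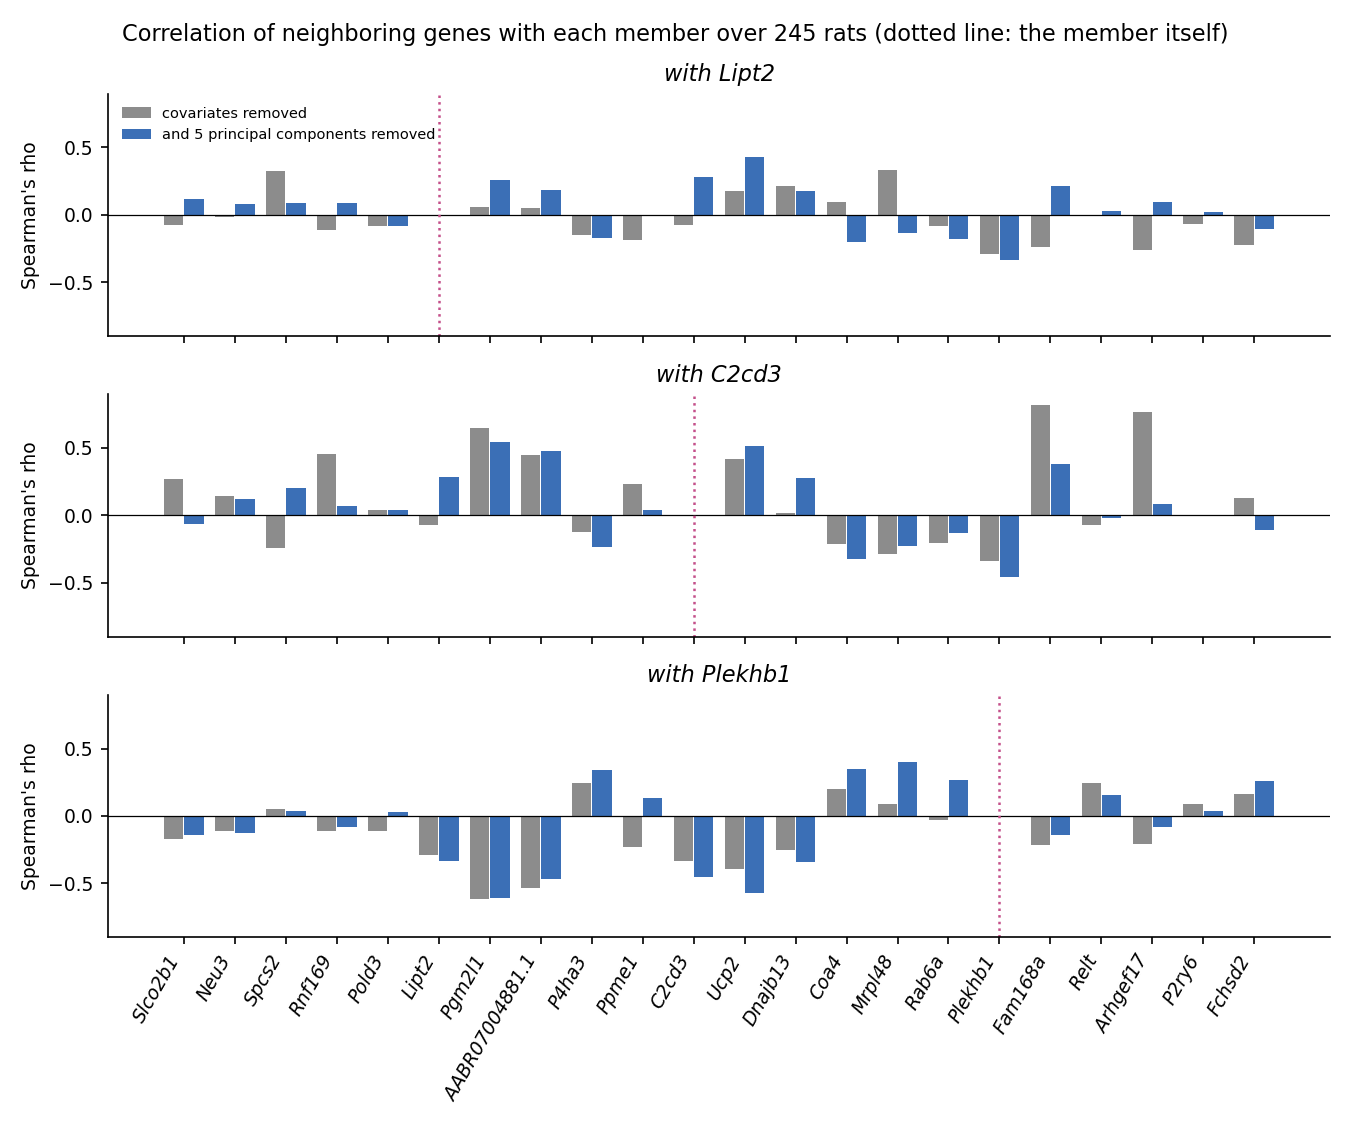
Spearman's rho (y axis) of 22 chromosome 1 genes (x axis, in published order) with Lipt2, C2cd3 and Plekhb1 over 245 rats, with the covariates removed (gray) and with 5 principal components removed as well (blue). The dotted line marks the gene itself, and Pgm2l1, AABR07004881.1 and Ucp2 lie above 0 with Lipt2 and C2cd3 and below 0 with Plekhb1.

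Among all genes tested, the 5 most like each gene by absolute rho with the covariates removed were led by Fam168a for C2cd3 (rho = 0.82). It was followed by ENSRNOG00000047296 and ENSRNOG00000012240, with no symbol in the tables used here, then Arhgap35 (rho = 0.79), and Slk, a kinase (rho = 0.79). Of all genes, 12.8% had an absolute rho over 0.5 with C2cd3. For Plekhb1 the second was Pgm2l1 (rho = -0.62), and the other four, led by ENSRNOG00000048273 (rho = 0.64), had no symbol. Only 0.247% of genes passed an absolute rho of 0.5 with Plekhb1. None did so with Lipt2, whose 5 most like genes had no symbol and reached rho = 0.49. After 5 components were removed, the nearest genes were Ucp2 for Lipt2 (rho = 0.43), ENSRNOG00000017716 for C2cd3 (rho = -0.57) and Pgm2l1 for Plekhb1 (rho = -0.61). Ucp2 was then among the 5 most like genes of all 3. ENSRNOG00000017716 also was, at -0.35 with Lipt2 and 0.54 with Plekhb1, but its median count was 5 reads.

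The pathway lists could be matched to identifiers only in small part, through the symbols the study pairs with its genes. Of 26 genes of lipoylation and mitochondrial fatty acid synthesis, 3 were matched. Besides Lipt2 these were Bckdha, a subunit of the branched-chain ketoacid dehydrogenase that carries lipoate on its core (rho with Lipt2 = 0.33), and Ndufab1, the mitochondrial acyl carrier protein (rho = 0.40). With 5 components removed these values were 0.096 and 0.050. Of 25 genes of the centriole, cilium and hedgehog pathway, 4 were matched. Besides C2cd3 these were Cep89 (rho with C2cd3 = -0.19), Ccp110 (rho = 0.35) and Sufu, an inhibitor of hedgehog signaling (rho = 0.59), which were at 0.072, 0.051 and 0.0017 with 5 components removed. None of these 5 genes passed FDR 0.10 in limma for sex, hippocampal side or PavCA experience, where 9.08%, 0% and 9.19% of all genes passed, so a count of 0 is near the background. Plekhb2, the closest relative of Plekhb1, was not matched.

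Because Plekhb1 is known from myelinating cells, its relation to oligodendrocyte markers was measured. Of 16 markers listed, 3 were matched, and Plekhb1 had a rho of 0.52 with Opalin, 0.45 with Mag and 0.28 with Myrf, with medians of 129, 195 and 51.9 CPM. C2cd3 had -0.060, 0.14 and 0.52 with the same genes, and Lipt2 -0.066, -0.18 and -0.26. The summed level of the 3 markers ranged from 198 to 637 CPM in males and from 201 to 679 CPM in females. With 5 components removed, Plekhb1 had values of 0.32, 0.30 and 0.27 with Opalin, Mag and Myrf. With the covariates removed, no matched marker of another cell type reached the values of Opalin and Mag with Plekhb1, while Gfap and Folr1 came near that of Myrf. Gfap was at 0.27 before and after the components were removed, and Folr1, a marker of the choroid plexus, at 0.26 and -0.31. Aqp4, an astrocyte water channel, was at 0.13 and 0.18, and Slc17a7 at -0.22 and 0.12. In bulk tissue, fewer cells of a type and less RNA per cell cannot be told apart, and the part of these markers in the relations among the 3 genes was not tested. The LocoScore slopes of the markers were -0.00560 (SE 0.00706) for Opalin, -0.00151 (SE 0.00686) for Mag and 0.00151 (SE 0.00787) for Myrf per 100 beam breaks, each smaller than its error.

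The 12 families overlapped widely in all 3 genes once the covariates were removed. Lipt2 was lowest in family 7, at 2.45 on the log2 CPM scale, and highest in family 5, at 2.698, a ratio of 1.19. C2cd3 ranged from 3.51 in family 1 to 3.91 in family 12, a ratio of 1.32. Family 12 had the widest C2cd3 spread, with an SD of 0.52, while no other family exceeded 0.31. Most rats of family 12 were in sequencing batch 3 and untrained, and the covariates were removed without family in the model. Family is thus only partly separable from batch and PavCA experience. Plekhb1 ranged from 8.09 in family 8 to 8.34 in family 7, a ratio of 1.19. The SD within families was 0.20, 0.29 and 0.24, and that of the family means 0.072, 0.12 and 0.079. Family 7 thus had the least Lipt2 and the most Plekhb1. Family took 7.52% of the variance left after the covariates in Lipt2, 8.25% in C2cd3 and 5.10% in Plekhb1 (adjusted for degrees of freedom), against a median of 4.43% over all genes, and 56.3% of all genes passed FDR 0.10 for family. These shares were unstable across settings, and 6 of 15 alternatives moved them by over 1.5 times. Within sequencing batches 1, 2 and 3 they were 18.7, 6.43 and -13.5% for Lipt2, 6.36, 9.17 and 5.72% for C2cd3, and 2.06, 6.81 and 9.50% for Plekhb1, where a value below 0 means that family explained less than its degrees of freedom would. With sex as sole covariate they were 10.7, 4.42 and 1.01%. Across the 12 family means rho was -0.48 for Lipt2 with C2cd3 (r = -0.42, permutation p = 0.122 and 0.177), 0.084 for Lipt2 with Plekhb1 (r = 0.010, permutation p = 0.797 and 0.975) and -0.29 for C2cd3 with Plekhb1 (r = -0.41, permutation p = 0.356 and 0.189). None passed after adjustment over 3 pairs (smallest adjusted permutation p = 0.284), and without the 2 farthest families r was -0.070, 0.16 and 0.095.

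**Figure D4:**
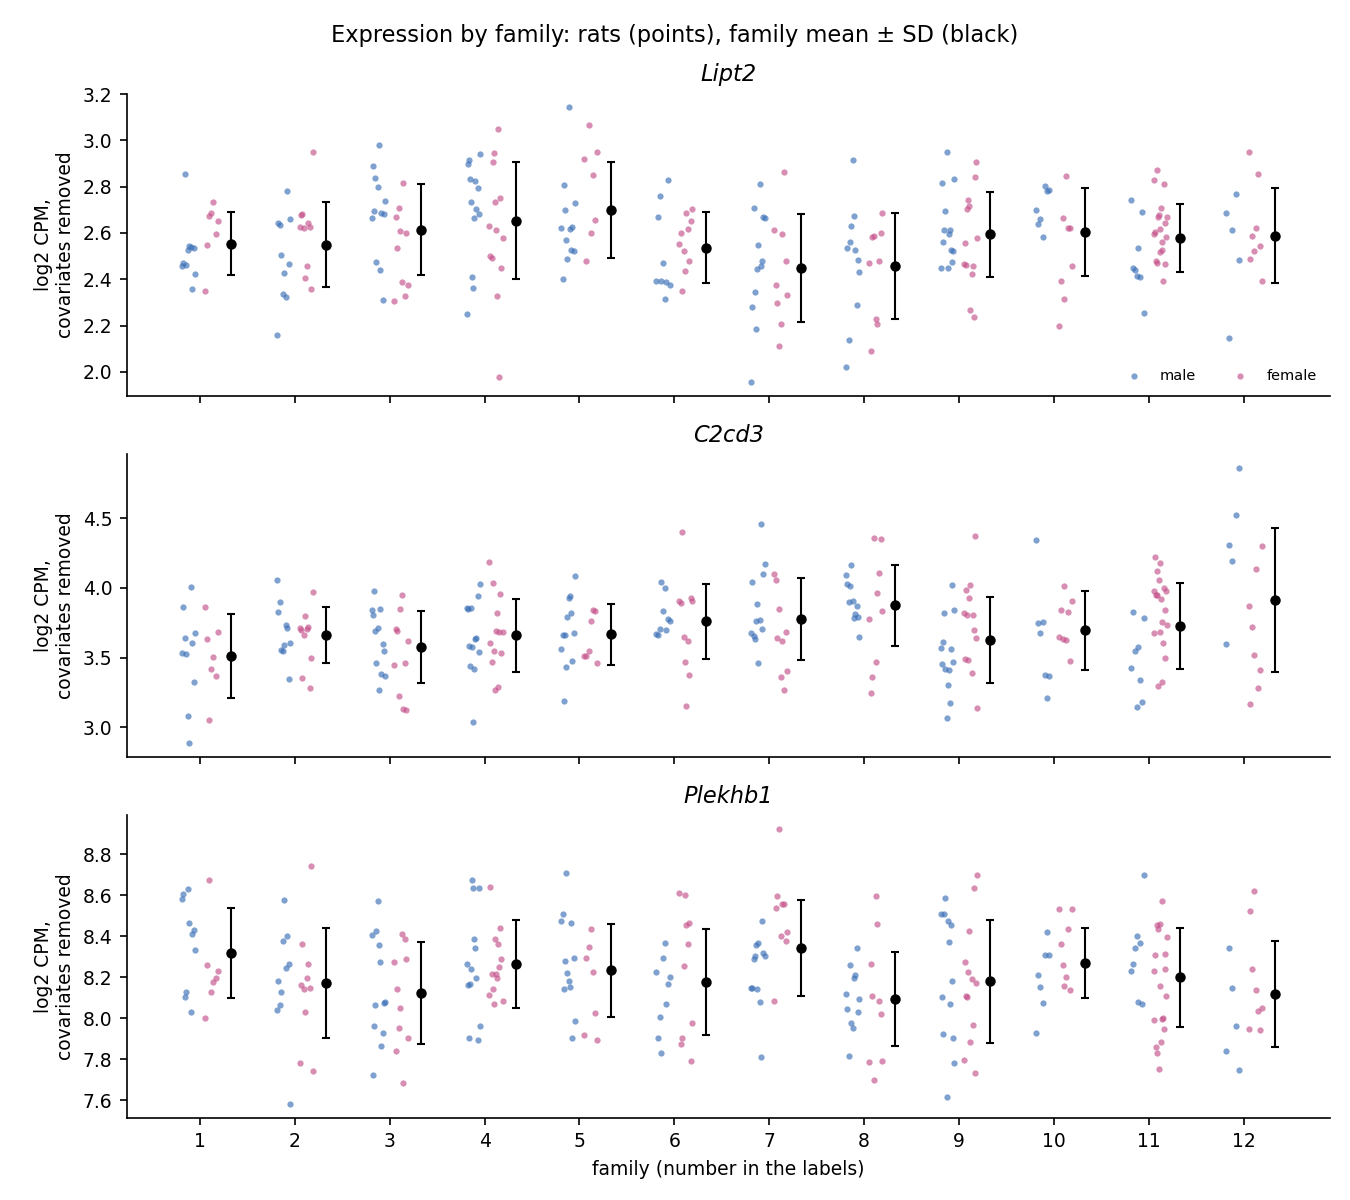
Covariate-adjusted log2 CPM (y axis) of Lipt2, C2cd3 and Plekhb1 in each of 12 families (x axis), with 1 point per rat (males blue, females pink) and the family mean ± SD in black. The families overlap for all 3 genes, and the C2cd3 means run from 3.51 in family 1 to 3.91 in family 12.

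The relations to behavior come from the contrast that the choice of the genes used, so slopes and errors are given without a test. LocoScore counts the beam breaks of a rat in an enclosure it has not met before. Per 100 beam breaks, the slope of log2 expression was 0.0103 (SE 0.00452) for Lipt2, 0.0144 (SE 0.00634) for C2cd3 and -0.0163 (SE 0.00543) for Plekhb1 (n = 245). Per SD of LocoScore these slopes were 0.031, 0.043 and -0.049, each well below the SD of 0.20 to 0.30 left after the covariates were removed. Rearing gave 0.032, 0.044 and -0.049 per SD, and lateral movement 0.026, 0.039 and -0.046. Over all genes, 0.0103% passed FDR 0.10 for LocoScore, and nothing about the 3 genes is read from that share. The slopes of Lipt2 and C2cd3 were above 0 and those of Plekhb1 below 0 on both parts of the score.

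On the elevated plus maze (EPM), Plekhb1 had its largest slope on time immobile, 0.064 per SD (SE 0.019), with -0.046 (SE 0.022) for C2cd3 and -0.011 (SE 0.016) for Lipt2. For distance traveled the slopes per SD were -0.032 (SE 0.017) for Plekhb1, 0.032 (SE 0.020) for C2cd3 and 0.011 (SE 0.014) for Lipt2, in 244 rats, with the distance above 5000 cm left out. Time in the open arms, as a percentage, had slopes within 1 SE of 0 for all 3 genes, at -0.0074 for Lipt2, -0.0039 for C2cd3 and -0.0076 for Plekhb1. For fecal boli (n = 242) they were 0.0093, -0.017 and 0.020, with SEs of 0.015, 0.020 and 0.017. With 2 SEs taken as a mark of size and not as a test, slopes on the maze exceeded it for time immobile in C2cd3 and Plekhb1. No other maze measure did so.

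The PavCA Index, which runs from goal-tracking to sign-tracking, had slopes per SD of 0.0080 (SE 0.017) for Lipt2, 0.015 (SE 0.021) for C2cd3 and -0.017 (SE 0.019) for Plekhb1 in 205 rats. Its parts on the last 2 training days, which share rats and responses, gave slopes between 0.0022 and 0.017 for Lipt2, between 0.0074 and 0.023 for C2cd3, and between -0.028 and -0.014 for Plekhb1. Over all 16 measures, Lipt2 had 14 slopes above 0, C2cd3 13 and Plekhb1 2. Over all genes, at most 0.00515% passed FDR 0.10 for the PavCA Index or any of its parts, and nothing about the 3 genes is read from that share. Slopes over 2 SEs, again a mark of size and not a test, numbered 2 for Lipt2, 4 for C2cd3 and 4 for Plekhb1. Those of Lipt2 were LocoScore and its rearing part. Those of C2cd3 and Plekhb1 were LocoScore, both of its parts and EPM time immobile, so they are not separate results. Over all genes, between 3.07% and 5.5% had an unadjusted limma p below 0.05, depending on the measure.

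**Figure D5:**
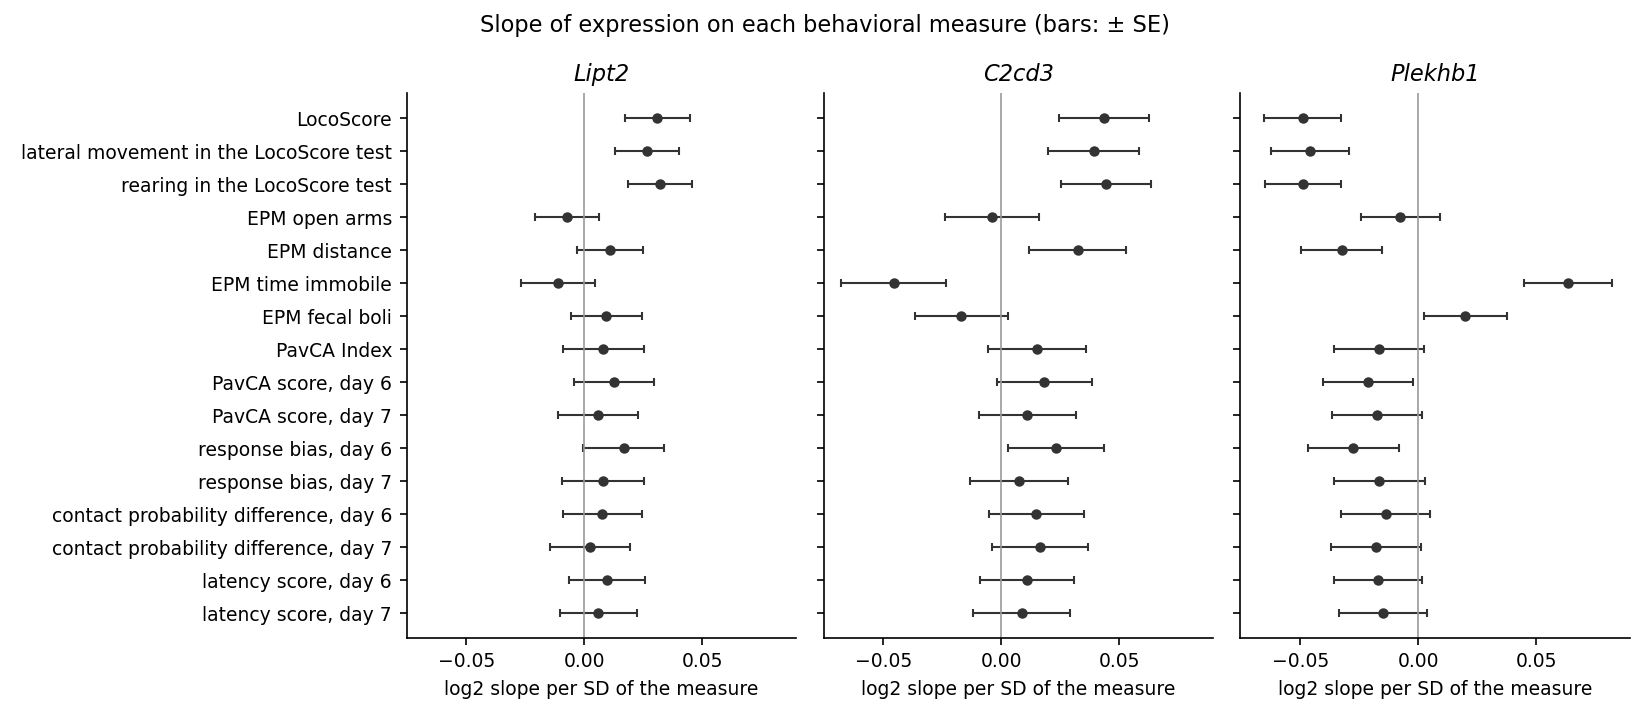
Slope of log2 expression per SD of each of 16 behavioral measures (y axis, one row each), for Lipt2, C2cd3 and Plekhb1, with bars of ± SE. The slopes on locomotion are above 0 for Lipt2 and C2cd3 and below 0 for Plekhb1, and those on the PavCA measures lie nearer to 0.

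The neighbors differed in their LocoScore slopes too, and 10 of the 19 had a slope above 0. Ucp2 had a slope of 0.0220 (SE 0.00666) per 100 beam breaks, Dnajb13 one of 0.0122 (SE 0.00427) and Pgm2l1 one of 0.00793 (SE 0.00399). The gene between C2cd3 and Plekhb1 with the most reads, Rab6a, a small GTPase of Golgi traffic, had a slope of 0.000471 (SE 0.00225). Of the 9 neighbors with a slope below 0, P4ha3 was at -0.0257 (SE 0.0146), Relt at -0.00878 (SE 0.00562) and Fchsd2 at -0.00426 (SE 0.0023). With 5 components added as covariates by least squares, the slopes of Lipt2, C2cd3 and Plekhb1 were 0.00877 (SE 0.004), 0.0124 (SE 0.00395) and -0.0151 (SE 0.00452).

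The slopes within each sex were known from earlier results of these data. The difference between them is therefore given with its interval, which is not adjusted for the number of genes. Its adjusted p-values, here and below, are not independent of those earlier results. The slope of C2cd3 on LocoScore was -0.00877 (SE 0.0097) in males and 0.0264 (SE 0.00711) in females when each sex was fitted alone. In the joint model the female slope exceeded the male one by 0.0394 (95% interval 0.0148 to 0.0641). That difference did not pass FDR 0.10 (limma adjusted p = 0.13). Over all genes, 18.5% had an unadjusted limma p below 0.05 for the difference in LocoScore slope, and 0.329% passed FDR 0.10. The number passing was unstable, from 0 to 1990 genes when each family was left out in turn. For Lipt2 the difference was -0.00403 (95% interval -0.0219 to 0.0139) and for Plekhb1 -0.00339 (95% interval -0.0249 to 0.0181). For EPM time immobile the C2cd3 difference was -0.0389 per 10 s (95% interval -0.0745 to -0.00332). It did not pass FDR 0.10 either (limma adjusted p = 0.299). For this measure 15.1% of all genes had an unadjusted limma p below 0.05 and 0.00514% passed FDR 0.10.

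No difference in level between the sexes was detected. Lipt2 was at a median of 5.57 CPM in males (2.60 to 14.1) and 5.70 CPM in females (2.41 to 18.4). C2cd3 was at 13.2 CPM in males (4.54 to 28.5) and 13.3 CPM in females (3.72 to 30.5), and Plekhb1 at 294 CPM in males (191 to 520) and 291 CPM in females (164 to 620). The ranges overlapped almost fully. The female minus male difference on the log2 scale was 0.011 for Lipt2 (95% interval -0.042 to 0.064, limma adjusted p = 0.89), -0.035 for C2cd3 (-0.11 to 0.041, limma adjusted p = 0.697) and -0.037 for Plekhb1 (-0.10 to 0.028, limma adjusted p = 0.601). In all, 9.08% of genes passed FDR 0.10. Males and females shared no date of death and no age, so sex cannot be told apart from either. Within sequencing batch 2 alone, C2cd3 was lower in females by 0.16 (limma adjusted p = 0.0726), whereas the difference was 0.049 in batch 1 and 0.050 in batch 3.

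Hippocampal side gave right minus left differences of 0.029 for Lipt2 (95% interval -0.022 to 0.081), -0.034 for C2cd3 (-0.11 to 0.040) and -0.0086 for Plekhb1 (-0.071 to 0.054), with limma adjusted p-values of 0.91, 0.923 and 0.98. The medians were 6.22 and 5.48 CPM for Lipt2 on the right and left, 12.9 and 13.6 CPM for C2cd3, and 294 and 291 CPM for Plekhb1. No gene of the 19448 passed with limma, where 1048 had an unadjusted p below 0.05, and 6 passed with edgeR. PavCA experience gave trained minus untrained differences of 0.040 for Lipt2 (-0.044 to 0.12), 0.041 for C2cd3 (-0.098 to 0.18) and -0.061 for Plekhb1 (-0.17 to 0.049), with limma adjusted p-values of 0.675, 0.816 and 0.608, where 9.19% of all genes passed. With sex as the only covariate, Lipt2 was lower in trained rats by 0.29 (limma adjusted p = 0.0321), in a model where 5585 of the 19448 genes passed. Of the 37 untrained rats, 30 were in sequencing batch 3, where the intergenic percentage was lowest, so that PavCA experience and batch are only partly separable.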

How the data were processed

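Each library is 1 rat, and rats of a family are related, which the model without family does not hold. The authors deposited raw counts per gene, made with STAR 2.7.3a on Rnor6 and unique, strand-specific hits (Subread 2.0.0). Depth and counting error are given with the levels. The counts were scaled by TMM and tested with limma-voom (limma 3.58.1, edgeR 4.0.16) over 19448 genes, with behavior, sex, batch, dissector, PavCA experience and the ribosomal and intergenic percentages in the model, at a Benjamini-Hochberg FDR of 0.10. Sequencing batch was read from gaps in the library numbers, and the intergenic percentage was recomputed because the labels hold it as dates. Log2 CPM had a prior count of 2. Symbols are those the study pairs with identifiers. Genes named beyond the 3 are those of the fixed lists and the 5 most like each gene by absolute rho. The 3 genes and the lists were chosen with earlier results of these data known. Alternatives used edgeR quasi-likelihood, DESeq2 1.42.0 size factors, other filters and covariates, and each family left out. Tested on simulated data for sex, the fit recovered 199 of 200 changed genes among 19400, with 27 false calls. The false calls were a larger share of all calls than the FDR of 0.10. Genes of low count were not changed, and the changes were larger than the sex differences of the 3 genes. No effect of RNA composition, batch or family was simulated, so the run does not show how the fit handles them.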

Additional observations from a re-analysis of the deposited data

Results flagged for a closer look

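The rats of each family and sex were examined for each of the 3 genes, wherever such a set held 4 to 10 rats, which gave 45 sets in which the same rats recur for each gene. In 2 of them, 1 rat stood apart from the others in covariate-adjusted log2 CPM by Dixon's criterion, whose 95% level by itself marks about 1 set in 20. For Lipt2, 1 of 10 males of family 1 was at 2.8536, while the other nine lay between 2.36 and 2.55. For Plekhb1, 1 of 7 females of family 1 was at 8.6755, while the others lay between 8.00 and 8.26. Before the covariates were removed, neither rat stood outside the others. The male was at 2.61 log2 CPM against 2.23 to 3.78, and the female at 8.19 against 7.73 to 8.32. The library of that female had the highest intergenic percentage of all, 17.3%. The cause was not tested.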

How the results depend on the processing

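No paired analysis was possible because the labels number no replicates and the numbers used were given in accession order. Of 957 alternative values, 807 were labeled the same, 110 moved, 30 reversed, 8 stronger and 2 weaker. For tested differences, interactions and correlations, the same means that direction and side of the threshold were kept. Slopes on behavior, numbers of genes, family shares and distribution shapes were labeled by their distance from the main value only. A slope on behavior labeled the same or moved can thus have changed sign, and none of the 30 reversed is such a slope. Where no cause is named below, the cause was not tested.

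A model holding sex alone as covariate gave 355 genes for sex, 5585 for PavCA experience, 1 for LocoScore and 0 for the sex-by-LocoScore interaction, the side difference of Plekhb1 was 0.0088, the PavCA difference of Lipt2 was -0.29, and the LocoScore slopes of Lipt2, C2cd3 and Plekhb1 were 0.0252, -0.00154 and -0.0101. Without the intergenic percentage, 2988 genes passed for sex, 581 for PavCA experience and 0 for the interaction, and the sex differences of Lipt2 and C2cd3 were -0.071 and 0.096.

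Any single batch holds fewer rats than the whole set. Batches 1 and 2 hold only 4 and 3 untrained rats, and their PavCA values rest on these. Within sequencing batch 1, 543 genes passed for sex, 16 for PavCA experience, 2882 for family, 0 for LocoScore and 0 for the interaction. The sex differences of Lipt2 and C2cd3 were -0.055 and 0.049, the side difference of Lipt2 was -0.055 and its interaction 0.000847. Within batch 2, 94 genes passed for side, 22 for PavCA experience, 5608 for family, 0 for LocoScore and 1 for the interaction. C2cd3 differed by -0.16 for sex (limma adjusted p = 0.0726) and 0.028 for side. The PavCA differences of the 3 genes were -0.032, -0.17 and 0.14, with SEs of 0.13, 0.13 and 0.15. The LocoScore slope of Lipt2 was -0.00285, and rho of Lipt2 with Plekhb1 was -0.14. Within batch 3, 36 genes passed for sex, 1 for side, 204 for family, 0 for LocoScore and 0 for the interaction. The sex difference of C2cd3 was 0.050, the side difference of Plekhb1 0.029, the PavCA differences of C2cd3 and Plekhb1 -0.075 and 0.045, their LocoScore slopes -0.000783 and -0.00719, the interaction of Lipt2 0.0143, and rho of Lipt2 with C2cd3 0.039.

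For LocoScore, 1 gene passed with at least 1 CPM, with family added, with all 250 libraries and with edgeR. For the interaction, 14 genes passed without a filter, 272 with at least 1 CPM, 746 with family added, and 3 with all 250 libraries and 3 with edgeR. In the main model the C2cd3 interaction with LocoScore was 0.0394 and did not pass the threshold (limma adjusted p = 0.13). At least 1 CPM and family added gave C2cd3 interactions of 0.0380 and 0.0426, 1 of 15 past the threshold in each. Family added also gave a C2cd3 LocoScore slope of 0.0225. edgeR called 6 genes for side. DESeq2 size factors gave Plekhb1 a ribosomal slope of 0.15 (limma adjusted p = 0.039).

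Without covariates removed, rho was -0.83 for Lipt2 with C2cd3 and 0.55 for Lipt2 with Plekhb1, and Lipt2 and C2cd3 each had 2 components. With 5 principal components removed, rho of Lipt2 with C2cd3 was 0.28 and the neighbors past 0.3 were 1 for Lipt2 and 7 for Plekhb1. Over family means, rho was 0.084 for Lipt2 with Plekhb1 and -0.29 for C2cd3 with Plekhb1, and 0.21 for both without the 2 farthest families.

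Leaving out each family in turn gave 1002 to 3055 genes for PavCA experience, 0 to 1 for side, 0 to 5 for LocoScore, 0 to 1990 for the interaction and 0 to 1 of the 15 interactions. The lowest PavCA count came without family 6 and the highest without family 12, and the highest interaction count without family 10. The 1 of 15, C2cd3 on LocoScore, came without family 8, 10 or 11, where 1065, 1990 and 1146 genes passed. The sex difference of C2cd3 ran from -0.075 to 0.0030, the side difference of Plekhb1 from -0.028 to 0.015 and its PavCA difference from -0.13 to 0.0099. The LocoScore slope of Lipt2 ran from 0.00485 (without family 7) to 0.0127. The interactions ran from -0.00860 to 0.000202 for Lipt2, 0.0325 to 0.0448 for C2cd3 and -0.0111 to 0.00504 for Plekhb1.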
